A study of Mus musculus with 6 samples.

Results

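Respiratory complex I is described here through the pituitary transcripts of 36 nuclear genes for its subunits, taken as every non-control probe whose accession is a RefSeq accession of a listed NADH dehydrogenase subunit gene. These genes had 42 probes out of 55681 non-control probes on the array, and they make up 36 of the 26887 genes and unnamed features tested. Whole pituitaries came from virgin C57BL6 females, 8 weeks old, which were killed 24 h after exposure to soiled bedding of a stud male, a treatment that activates the oestrous cycle. One group was homozygous null for Jmjd2a (Jmjd2a-/-, KO, n = 3) and the other was wild-type littermates (Jmjd2a+/+, WT, n = 3), all with the same exposure. Jmjd2a, now called Kdm4a, encodes a histone demethylase. Each array held the labelled RNA of a separate female. Which exons the null allele lacks was not known for the work described here.

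Complex I is the entry point of the mitochondrial electron transport chain. It takes electrons from NADH through a flavin and a row of iron-sulfur clusters to ubiquinone, and it pumps protons across the inner membrane. The enzyme is L-shaped, with a matrix arm that holds the NADH and ubiquinone reactions and a membrane arm that holds the proton pumps, whose core is encoded in mitochondrial DNA. Around the core sit accessory subunits that are needed for assembly and stability. Hormone-secreting cells of the pituitary draw on oxidative phosphorylation for hormone synthesis and exocytosis.

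The precision of every value is limited by the number of arrays. Between 34634 and 40567 probes lay well above background on an array. The brighter probe of Kdm4a read 2.14, 1.90 and 1.85 on WT replicates 1 to 3 and 1.45, 1.20 and 1.36 on KO replicates 1 to 3 (log2 intensity over the array's 75th percentile). That made a mean of 1.96 ± 0.15 (SD, n = 3) for WT against 1.34 ± 0.13 (SD, n = 3) for KO, with no overlap (exact two-sided permutation p = 0.1, the smallest that 3 arrays against 3 allow). A dimmer probe of the gene passed background on 2 of the 6 arrays, with overlapping WT and KO values. So it is not known whether either probe lies in the deleted part. All 16 markers of hormone-producing pituitary cells were well above background on at least 3 arrays. The array WT replicate 3 stood apart through transcripts of other cells: markers of neutrophils, Schwann cells and dividing cells lay on average 2.50, 1.40 and 1.98 (log2) above their means over all arrays.

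For orientation among the members, the sequences before the start sites of 4 genes are shown first. Ndufb7 and Ndufs6 had the smallest p of the members in the comparison of KO with WT, while Ndufa6 and Ndufs7 had the largest. The windows are the 250 bases before the RefSeq start site (GRCm38.p6), and capitals mark matches to the motifs named below them.
Ndufb7, chr8:83566508-83566757, plus strand: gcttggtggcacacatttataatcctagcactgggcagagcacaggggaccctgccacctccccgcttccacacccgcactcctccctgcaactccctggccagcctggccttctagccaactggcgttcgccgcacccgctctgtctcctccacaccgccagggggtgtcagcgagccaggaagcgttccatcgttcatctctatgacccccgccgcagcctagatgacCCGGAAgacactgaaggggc
Ndufs6, chr13:73328483-73328732, minus strand: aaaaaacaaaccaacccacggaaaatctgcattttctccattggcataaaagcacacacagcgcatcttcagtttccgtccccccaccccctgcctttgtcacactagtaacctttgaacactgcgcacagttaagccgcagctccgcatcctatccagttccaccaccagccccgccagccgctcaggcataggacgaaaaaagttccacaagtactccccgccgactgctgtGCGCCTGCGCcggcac
Ndufa6, chr15:82354292-82354541, minus strand: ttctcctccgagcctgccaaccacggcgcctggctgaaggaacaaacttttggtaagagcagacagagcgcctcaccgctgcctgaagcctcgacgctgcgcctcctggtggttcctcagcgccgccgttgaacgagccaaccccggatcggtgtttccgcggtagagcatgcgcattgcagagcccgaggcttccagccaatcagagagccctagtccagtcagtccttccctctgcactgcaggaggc
Ndufs7, chr10:80249199-80249448, plus strand: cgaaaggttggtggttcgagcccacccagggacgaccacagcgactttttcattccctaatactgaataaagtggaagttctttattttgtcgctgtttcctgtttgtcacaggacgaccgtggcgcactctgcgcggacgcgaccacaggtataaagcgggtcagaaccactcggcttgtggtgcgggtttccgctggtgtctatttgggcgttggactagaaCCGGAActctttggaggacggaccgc
Motifs of regulators of nuclear mitochondrial genes were searched on both strands in windows from 250 bases before to 50 bases after a start, in the RefSeq promoter table. That table held windows for 33 of the 36 members, and Ndufa2, Ndufb9 and Ndufs1 had none. The palindromic core of the NRF1 site, with 1 free base at its centre, matched windows of 7 members, or 22.9% of 35 member windows against 4.60% of all 32851 windows. The ETS core (CCGGAA), part of the site of GABP, matched 10 members (28.6% of windows against 14.9%), YY1 (AAGATGGC) matched 7 (20.0% against 2.75%) and the GC box (GGGCGG) matched 15 (45.7% against 35.7%). The E-box (CACGTG) matched 2 of the 33 members (8.57% of windows against 7.15%) and the ERR site (TCAAGGTCA) 0 (0% against 0.423%). Ndufa5 and Ndufa7 each had 2 overlapping windows. The shares of windows therefore count the E-box of Ndufa7, and the NRF1 match and GC box of Ndufa5, in both windows. Ndufb7 and Ndufs7, first and last of the members by p, each held an ETS core close to the start. Ndufs6 and Ndufa6 each held an NRF1 match, that of Ndufa6 after the start and so outside the printed bases. Also after the start, Ndufs6 and Ndufs7 each held a YY1 match and Ndufa6 a GC box. A match is a string of letters and not a shown binding site.

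The comparison of KO with WT asks whether pituitary transcripts depend on this demethylase in the first day after oestrous activation. Complex I subunit transcripts read slightly lower in KO, by amounts that did not pass the test for any single gene. Of the 36 genes, 35 had a log2 fold change (KO over WT) below 0, from -0.40 for Ndufs6 to -0.01 for Ndufs7, and Ndufa10 lay above 0 at 0.08. The median was -0.27, against -0.08 over all genes and features tested, of which 61% lay below 0. Over the 11810 genes and features within the members' range of mean level (-0.27 to 7.14), the median was -0.03 and 54.75% lay below 0. By limma with Benjamini-Hochberg adjustment over everything tested, 0 of the 36 passed an adjusted p under 0.05 (0% of all tested), with a lowest adjusted p of 0.345, and 0 passed 0.1 (0.0558% of all tested). Unadjusted, 8 members had p under 0.05, all lower in KO, where 8.92% of all tested were lower and 3.89% higher at that level. Of the 11810 within the members' range of mean level, 701 were lower and 559 higher at that level. In whole glands, fewer cells of a type and less RNA per cell cannot be told apart.

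How far the members lay from 0 depended on how the arrays were scaled. Levels are log2 intensities relative to each array's 75th percentile. With the arrays centred on their medians instead, the median of all genes tested moved from -0.08 to 0.10, that of the members to -0.09, and 28 members lay below 0. Median centring moved every fold change by the same 0.18, so the members' distance of -0.19 from the median of all genes, with 32 of 36 members below it, is 1 measurement under both scalings. Quantile normalization gave a distance of -0.14 (29 members below) and the authors' deposited value table -0.12 (30 below). Without WT replicate 3 the distance was -0.10 (29 below). There 0 members had an unadjusted p under 0.05, where 9.15% of all tested were lower in KO at that level. The count of members was also 0 without KO replicate 1 (6.51% of all tested lower) and without KO replicate 3 (5.3%). It was 0 with quantile normalization (5.09%) and with median centring (3.11%), and 13 without WT replicate 2 (12.8%). The arrays lay in 2 slide rows, and the second row held WT replicate 2 and KO replicate 2 only. With the row as a block 1 member had an unadjusted p under 0.05 (7.64% of all tested lower at that level). Within row 1 alone 8 had (9.13%), and the members' median was -0.37.

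**Figure D1:**
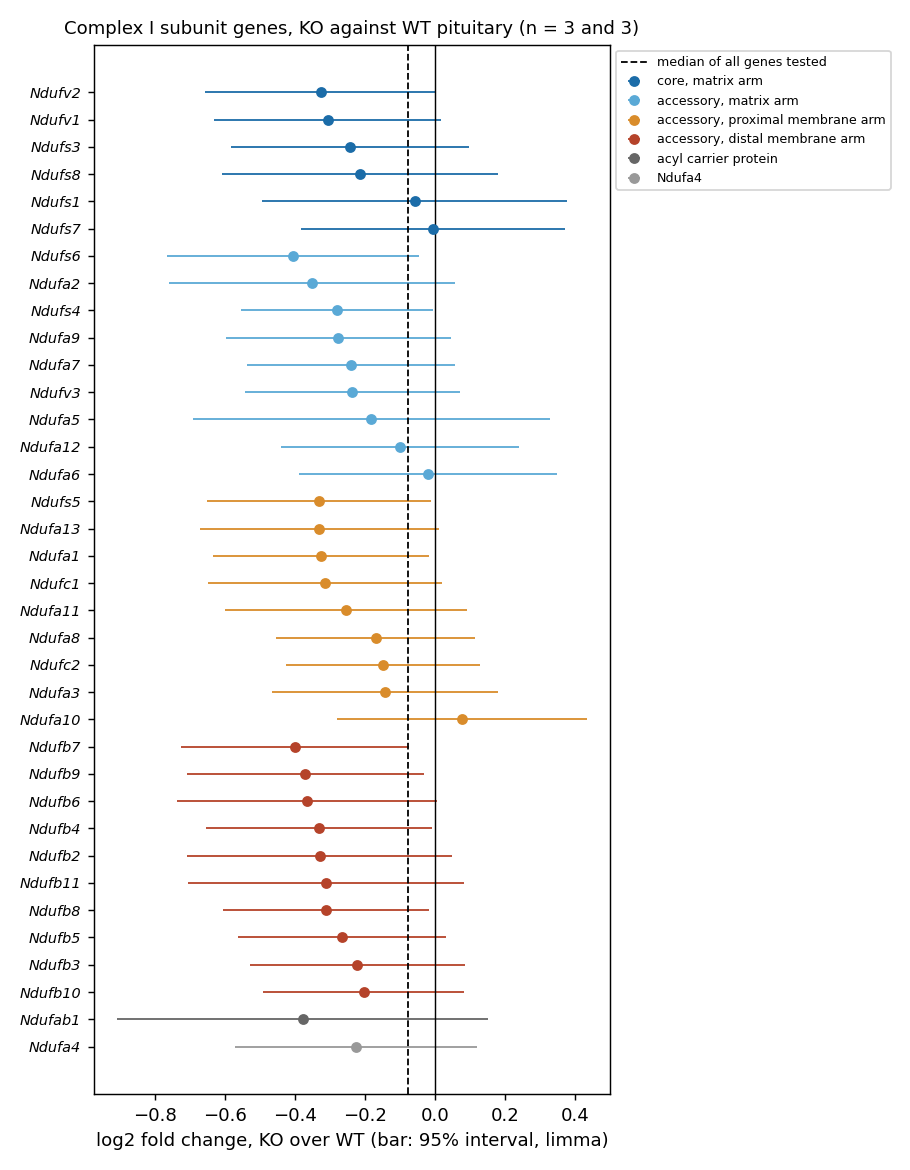
Log2 fold change (KO over WT) of each of the 36 complex I subunit genes by position in the enzyme, with the 95% interval from limma (n = 3 arrays per group). The solid line is 0 and the dashed line the median of all genes tested (-0.08). Of the 36 points, 35 lie below 0 and the intervals of 8 genes exclude it.

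All KO arrays lay below all WT arrays for 21 of the 36 members, and all above for 0, where 13.5% of all genes and features tested had all KO arrays below and 7.14% all above. This separation, too, followed the scaling. With median centring 0 members were separated in that direction (3.39% of all tested) and with quantile normalization 15 (9.09%). The count was 13 (12.6%) with normexp background correction and 12 (10.5%) in the authors' deposited value table. Without WT replicate 3, 21 members were separated, where 21% of all tested were.

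The core subunits of the matrix arm carry out the electron transfer. Ndufv1 binds NADH and the flavin, Ndufv2, Ndufs1, Ndufs7 and Ndufs8 hold iron-sulfur clusters, and Ndufs3 is a structural core subunit near the ubiquinone site. All 6 had values below 0, with a median of -0.23 (-0.11 with quantile normalization and in the authors' deposited value table), and 4 lay below the median of all genes. Ndufv2 read 4.53, 4.49 and 4.82 in WT and 4.18, 4.39 and 4.29 in KO (log2 over the 75th percentile, replicates 1 to 3), a log2 fold change of -0.33 ± 0.14 (SE; adjusted p = 0.390). Ndufv1 read 5.39, 5.44 and 5.71 in WT and 5.11, 5.25 and 5.26 in KO (-0.31 ± 0.14, adjusted p = 0.397). In both genes the lowest WT array still lay above the highest KO array.

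Other core subunits were less apart. Ndufs3 had a log2 fold change of -0.24 ± 0.14 and Ndufs8 of -0.21 ± 0.17, with overlapping groups. Ndufs1, the subunit with the most iron-sulfur clusters, read 3.64, 4.25 and 4.10 in WT and 3.83, 3.93 and 4.06 in KO, so its KO values lay inside the WT range (-0.06 ± 0.18, 95% interval -0.49 to 0.38). Ndufs7, which holds the cluster that hands electrons to ubiquinone, read 4.76, 5.03 and 5.02 in WT and 4.71, 4.92 and 5.15 in KO (-0.01 ± 0.16, interval -0.38 to 0.37). The sign of Ndufs7 was kept in 11 of 20 alternative processings and that of Ndufs1 in 17. In Ndufs1, Ndufs7 and Ndufs8 the lowest of the WT arrays was replicate 1, as it was in 12 of all members, Ndufv1 among them.

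Accessory subunits of the matrix arm steady the core and help to attach the NADH-oxidizing module. All 9 lay below 0 (median -0.24) and 5 were separated. The median was -0.046 with quantile normalization and -0.077 in the authors' deposited value table. Ndufs6, a zinc-binding subunit added late in assembly, had the lowest fold change of the members. It read 6.14, 5.94 and 6.36 in WT and 5.65, 5.88 and 5.69 in KO, or 75.6% of the WT signal (95% interval 58.9% to 97.0%), with a log2 fold change of -0.40 ± 0.15 (adjusted p = 0.361). The highest KO value lay just below the lowest WT value. Ndufs4, whose loss in mice gives a Leigh-like brain disease, read 3.81, 3.85 and 3.92 in WT and 3.50, 3.66 and 3.58 in KO (-0.28 ± 0.12, adjusted p = 0.382). It was the member with the smallest spread among WT arrays (SD 0.06).

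The rest of this set ran from Ndufa2, a subunit with a thioredoxin-like fold, at -0.35 ± 0.17 with overlapping groups (WT replicate 2 fell among the KO arrays), to Ndufa6 at -0.02 ± 0.16. Ndufa9 (-0.28 ± 0.14), Ndufa7 (-0.24 ± 0.12) and Ndufv3 (-0.24 ± 0.13) were separated. Ndufa6, a member of the LYR family that anchors an acyl carrier protein, read 5.32, 4.86 and 4.98 in WT and 4.93, 5.05 and 5.11 in KO. Its KO values lay inside the WT range, and its sign was kept in 14 of 20 alternatives. Ndufa5 (-0.18 ± 0.22) and Ndufa12 (-0.10 ± 0.14) also overlapped, and Ndufa5 turned to 0.03 without WT replicate 3.

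**Figure D2:**
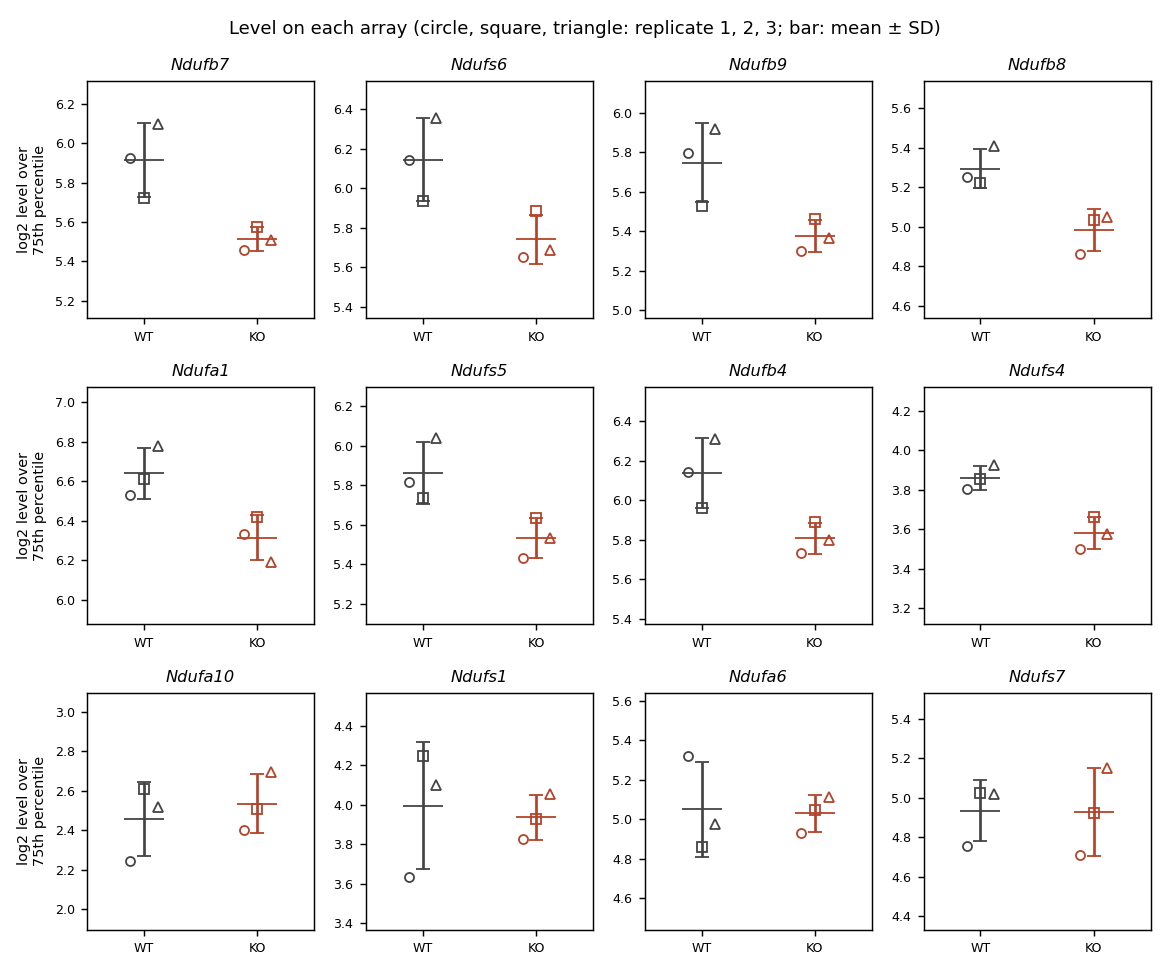
Level on each array (log2 intensity over the array's 75th percentile) of the 8 members with the smallest p and, in the bottom row, the 4 with the largest. Circles, squares and triangles are replicates 1, 2 and 3, and bars are the mean ± SD (n = 3); each panel spans the same log2 range, and in the top 2 rows all KO points lie below all WT points.

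On the proximal membrane arm, near the joint of the L, 8 of 9 accessory subunit genes lay below 0 (median -0.25) and 5 were separated. The median was -0.081 with quantile normalization and -0.14 in the authors' deposited value table. Ndufa1, an X-linked subunit needed for assembly, read 6.53, 6.61 and 6.78 in WT and 6.34, 6.42 and 6.19 in KO (-0.33 ± 0.13, adjusted p = 0.376). Ndufs5, a subunit of the intermembrane-space side with paired cysteines, read 5.82, 5.74 and 6.04 in WT and 5.43, 5.63 and 5.53 in KO (-0.33 ± 0.13, adjusted p = 0.380). Neither gene's groups overlapped, and in both the highest value was that of WT replicate 3. Ndufa13, also known as GRIM-19, had a value of -0.33 ± 0.14 and Ndufc1 of -0.31 ± 0.14, both without overlap.

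The remaining proximal members read from -0.25 ± 0.15 for Ndufa11 to 0.08 ± 0.15 for Ndufa10. Ndufa10, a subunit with a nucleoside-kinase-like fold, was the single member above 0. It read 2.25, 2.61 and 2.52 in WT and 2.40, 2.51 and 2.70 in KO, and the groups overlapped (95% interval -0.28 to 0.43). Its sign turned without WT replicate 1 (-0.03) and without KO replicate 3 (-0.00398). Ndufc2 (-0.15 ± 0.12) was separated by a narrow margin, with WT values of 5.62, 5.62 and 5.73 and KO values of 5.41, 5.56 and 5.57, while Ndufa8 (-0.17 ± 0.12) and Ndufa3 (-0.14 ± 0.14) overlapped. Ndufa3 and Ndufc2, like Ndufa6, Ndufa12 and Ndufs7 of the matrix arm, turned above 0 with quantile normalization, with median centring and in the authors' deposited value table.

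The distal membrane arm carries the outermost proton pumps, and holds the largest set of accessory subunits among the members. All 10 lay below 0 and below the median of all genes, from -0.40 to -0.20 with a median of -0.32, and 9 were separated. The median was -0.15 with quantile normalization and -0.16 in the authors' deposited value table. The count of 10 rests on the brighter probe of Ndufb11: with the mean of its probes this gene was at -0.041, above the median of all genes (-0.083) in that setting. Ndufb7, a subunit with paired cysteines on the intermembrane-space side, had the smallest p among the members. It read 5.93, 5.72 and 6.09 in WT and 5.46, 5.58 and 5.51 in KO, or 75.9% of WT (95% interval 60.6% to 95.1%), a log2 fold change of -0.40 ± 0.14 (adjusted p = 0.345). Over the 20 alternatives Ndufb7 ran from -0.53 (slide row 1 alone) to -0.20 (quantile normalization), and its lowest adjusted p was 0.169, without WT replicate 2.

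Ndufb9, another LYR protein, read 5.79, 5.53 and 5.92 in WT and 5.30, 5.46 and 5.36 in KO (-0.37 ± 0.14, adjusted p = 0.368). Ndufb8, whose protein is often used as a gauge of assembled complex I, read 5.25, 5.22 and 5.41 in WT and 4.86, 5.04 and 5.05 in KO (-0.31 ± 0.12, adjusted p = 0.376). Ndufb4 read 6.15, 5.96 and 6.31 in WT and 5.74, 5.89 and 5.80 in KO (-0.33 ± 0.14, adjusted p = 0.382). In Ndufb9 and Ndufb4 KO replicate 2 and WT replicate 2 lay closer together than the SD of the WT arrays (0.20 and 0.18), while in Ndufb8 the groups were further apart than that SD (0.10). The other members of the arm were Ndufb6 (-0.36 ± 0.16), Ndufb2 (-0.33 ± 0.16), Ndufb11 (-0.31 ± 0.17), Ndufb5 (-0.26 ± 0.13), Ndufb3 (-0.22 ± 0.13) and Ndufb10 (-0.20 ± 0.12). Of these Ndufb11, also X-linked, overlapped between groups. Ndufb10 turned to 0.01 with quantile normalization.

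The remaining members, Ndufab1 and Ndufa4, were not placed in any of these sets. Ndufab1, the mitochondrial acyl carrier protein, which also serves lipoic acid and iron-sulfur cluster synthesis, read -0.47, -0.18 and 0.40 in WT and -0.40, -0.51 and -0.46 in KO. The value of WT replicate 3 set most of its difference (-0.38 ± 0.22; -0.13 without that array), and WT replicate 1 lay among the KO arrays. Ndufa4, which was once counted with complex I and is now known as a subunit of cytochrome c oxidase, read 4.64, 4.81 and 4.99 in WT and 4.44, 4.72 and 4.60 in KO (-0.22 ± 0.15).

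For 6 genes there was more than 1 probe, and all 42 member probes were well above background on all 6 arrays with 0 saturated spots. Both probes fell on the same side of 0 and within 0.09 of each other in Ndufb4 (-0.33 and -0.32), Ndufb6 (-0.36 and -0.33), Ndufb5 (-0.26 and -0.18), Ndufv3 (-0.24 and -0.27) and Ndufa5 (-0.18 and -0.21). In Ndufb11 they did not. Its brighter probe read 6.67, 6.37 and 6.89 in WT and 6.27, 6.48 and 6.26 in KO, and its dimmer probe -0.41, -0.63 and -0.88 in WT and -0.54, -0.33 and -0.35 in KO, a log2 fold change of 0.23 ± 0.16 in the opposite direction. On WT replicate 3 the brighter probe was at its highest and the dimmer one at its lowest. With every probe tested on its own, 0 of 42 were called (0% of 36739 probes).

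The members moved up and down together from array to array. WT replicate 3 held the highest value of all 6 arrays in 30 of the 36 genes, and KO replicate 1 the lowest in 28. The members' median distance from their own means was 0.08, 0.03 and 0.29 on WT replicates 1 to 3 and -0.24, -0.04 and -0.13 on KO replicates 1 to 3. WT replicate 2 thus lay closest to WT replicate 1, of the first slide row, and next to KO replicate 2, of its own row. It lay further from WT replicate 3. Over all genes tested, WT replicate 3 was highest in 19.5%. The order was not particular to complex I. The genes of smallest p in complexes II to V (Sdhb, Uqcrfs1, Cox7b and Atp5k) were also highest on WT replicate 3 and lowest on KO replicate 1. Others of small p there differed in part: Cox4i1 was highest on WT replicate 1 and Atp5e lowest on KO replicate 3. The median member SD was 0.18 among WT arrays and 0.10 among KO arrays, against 0.23 and 0.15 over all genes, and 27 of 36 members spread more in WT.

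**Figure D3:**
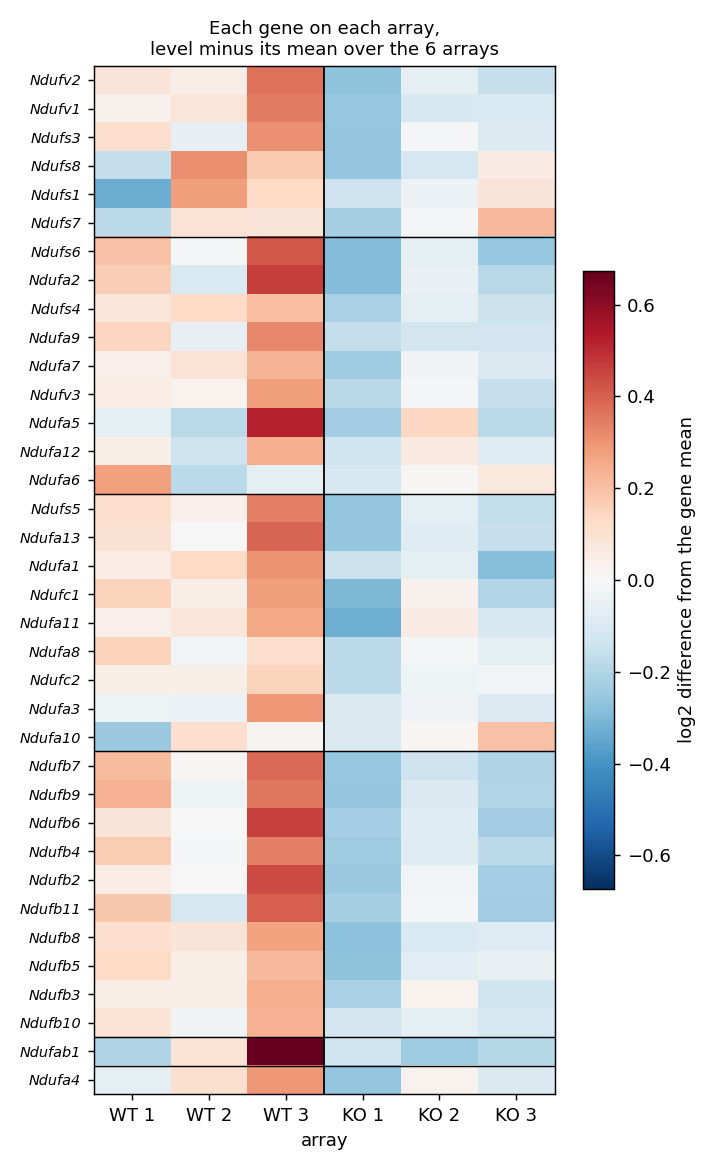
Each member's level on each array minus its mean over the 6 arrays (log2; red above, blue below), ordered by position in the enzyme from core matrix arm (top) to Ndufa4 (bottom). WT 3 is the reddest column (highest array in 30 of 36 genes) and KO 1 the bluest (lowest in 28).

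Markers of some other cells were also highest on WT replicate 3, but their order among KO arrays differed from that of the members. Neutrophil and dividing-cell markers were lowest on KO replicate 2 (-1.07 and -1.26 from their means), where the members were highest of the KO arrays. On WT replicate 3, endothelial and macrophage markers lay at -0.09 and -0.03, stem and folliculostellate markers at 0.23 and posterior lobe markers at 0.17. On WT replicate 3 the summed level of 5 neutrophil markers was 14.2 times the array's 75th percentile, the top of a WT range that began at 1.94, against 1.21 to 1.73 in KO. For 5 markers of dividing cells the WT range was 2.35 to 10.1 and the KO range 0.862 to 1.34, and for 5 Schwann cell and myelin markers 11.4 to 19.8 and 12.5 to 13.5. Erythroid markers (4 genes) were highest on KO replicate 1, at 0.73 above their mean. Markers of skeletal and cardiac muscle, a tissue rich in mitochondria, (4 of 5 could be tested) summed to 0.338 to 0.450 in WT and 0.333 to 0.428 in KO, and on WT replicate 3 lay 0.13 below their mean. Of 3 brown fat markers Cidea alone could be tested (8.12 to 9.57 in WT, 14.0 to 17.0 in KO), while Ucp1 and Elovl3 were not well above background on 3 arrays. Among hormone cells, somatotrope markers were below 0 in 2 of 2 genes (median -0.31; Ghrhr -0.40 ± 0.15, groups separated; Gh -0.22 ± 0.23) and corticotrope markers in 3 of 3 (median -0.23; Crhr1 -0.52 ± 0.16, separated; Pomc -0.23 ± 0.22). Their summed levels overlapped between groups, at 557 to 1020 in WT and 611 to 712 in KO for somatotropes and 393 to 708 and 415 to 489 for corticotropes. Medians of the other hormone cells were 0.14 (lactotropes, 1 of 3 below 0), -0.07 (gonadotropes, 2 of 4), 0.07 (melanotropes, 1 of 2) and -0.12 (thyrotropes, 1 of 2). The lactotrope gene below 0 was the hormone gene Prl (-0.26 ± 0.22), while Pou1f1 (0.14 ± 0.13) and Drd2 (0.31 ± 0.12) lay above. Lactotrope summed levels overlapped too, at 448 to 777 in WT and 451 to 546 in KO. The part of any of these cells in the complex I values was not tested.

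Under the reported processing, genes that work with complex I did not all share its values. Of 16 assembly factors, which build the enzyme but are not part of it, 11 lay below 0 and 6 below the median of all genes, with a median of -0.07. Those with the smallest p were Dmac1 (-0.24 ± 0.12), Ndufaf5 (-0.38 ± 0.27) and Foxred1 (-0.18 ± 0.16). Ndufa4l2, a paralog of Ndufa4, had a value of 0.06 ± 0.22. Genes for iron-sulfur cluster assembly also centred on the median of all genes (9 of 14 below 0, median -0.07), led by Fdxr (-0.32 ± 0.14), Isca2 (-0.20 ± 0.12) and Isca1 (0.24 ± 0.15). The mitochondrially encoded subunits had 0 probes matched by accession and were not analysed here.

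Subunits of the other respiratory complexes also had medians below that of all genes. The median was -0.24 for complex II (3 of 4 below 0), -0.25 for complex III (9 of 9), -0.27 for complex IV (11 of 11) and -0.30 for ATP synthase (16 of 16), so the values of complex I were not shown to be particular to it. These medians moved with the processing: quantile normalization gave -0.17 for complex II, -0.10 for complex III, -0.034 for complex IV and -0.12 for ATP synthase, against -0.12 for complex I. Without WT replicate 3 they were -0.21, -0.13, -0.17 and -0.19, against -0.18 for complex I. In these lists the smallest p belonged to Sdhb (-0.39 ± 0.18), Uqcrfs1 (-0.31 ± 0.11), Cox7b (-0.44 ± 0.18) and Atp5k (-0.42 ± 0.15). Genes with all KO arrays below all WT arrays numbered 2 in complex II, 2 in complex III, 5 in complex IV and 13 in ATP synthase. Enzymes of the tricarboxylic acid cycle and pyruvate dehydrogenase, which supply the NADH, had a median of -0.09 (13 of 16 below 0), with Idh3g lowest in p at -0.34 ± 0.14. Regulators of mitochondrial biogenesis had a median of 0.05 (5 of 13 below 0). Among them Tfam, which maintains mitochondrial DNA, read 0.20 ± 0.14, Gabpb1, a subunit of GABP, -0.23 ± 0.14 and the mitochondrial helicase Twnk -0.30 ± 0.20. In all of these lists 0 genes passed an adjusted p under 0.05 by limma, and at an unadjusted p under 0.05 there were 2 genes of complex III, 1 of complex IV, 4 of ATP synthase and 1 of the tricarboxylic acid cycle, all lower in KO. Under the common shift of median centring the medians of assembly factors (0.11), cluster assembly (0.11) and the tricarboxylic acid cycle (0.089) lay above 0, so their sign depends on the scaling. That of cluster assembly was also above 0 with normexp (0.016) and in the authors' deposited value table (0.011), and that of the biogenesis regulators was at 0.00 in both. Quantile normalization gave -0.053 for assembly factors, -0.016 for cluster assembly, -0.033 for the tricarboxylic acid cycle and 0.055 for the biogenesis regulators. There complex IV (-0.034) did not lie below the assembly factors. Most assembly factors also read dimmer than most subunits, and the part of signal level in these medians was not tested.

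**Figure D4:**
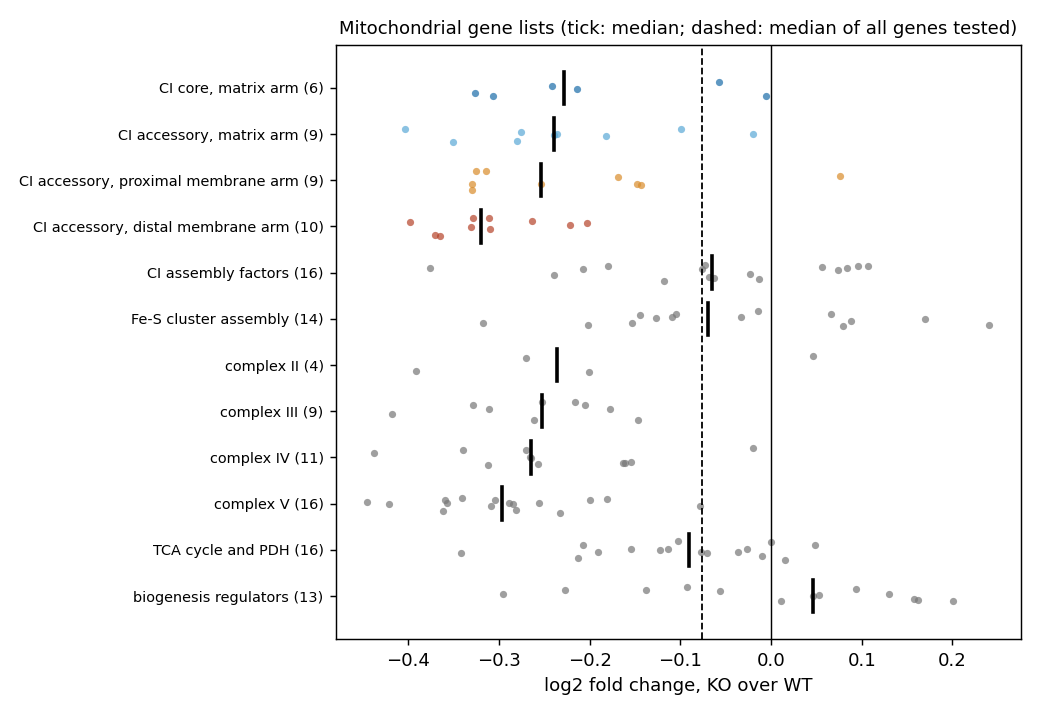
Log2 fold change (KO over WT) of every tested gene in the complex I sets (coloured) and in related mitochondrial lists (grey), with the number of genes in brackets and the median as a black tick. Medians of the 4 complex I sets (-0.32 to -0.23) and of complexes II to V (-0.30 to -0.24) lie left of the dashed median of all genes, and those of assembly factors, cluster assembly, the tricarboxylic acid cycle and biogenesis regulators lie between -0.09 and 0.05.

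**Figure D5:**
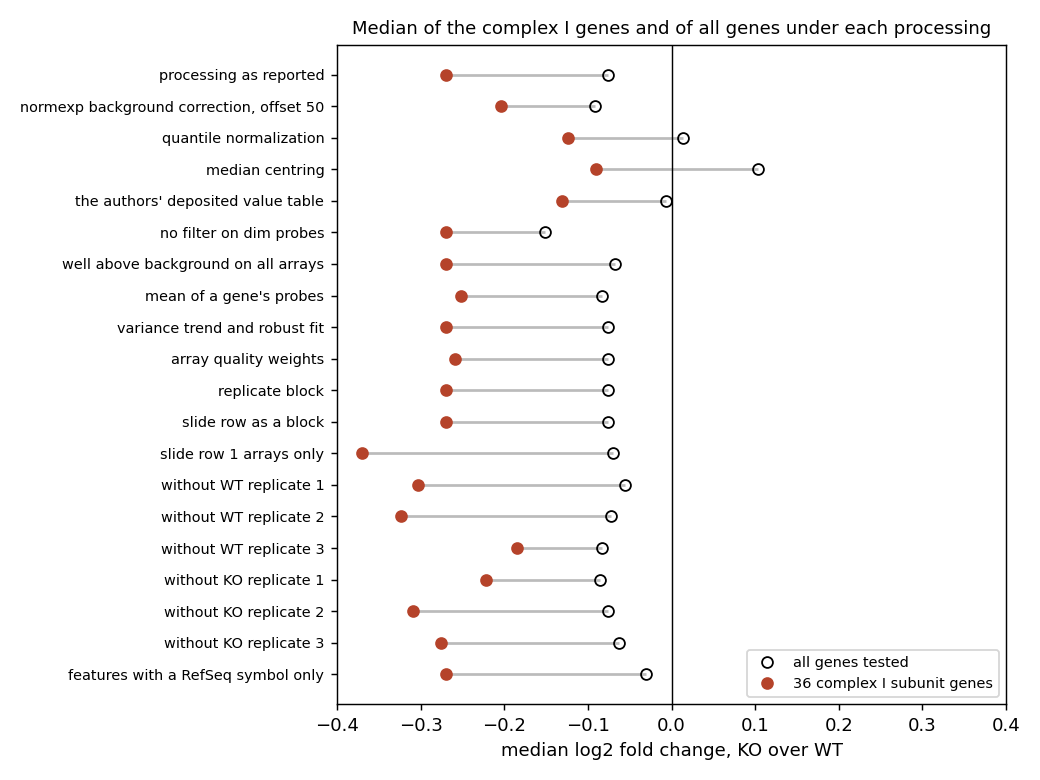
Median log2 fold change (KO over WT) of the 36 members (filled) and of all genes tested (open) under the reported processing and each alternative in which genes were the unit tested. The filled point lies left of the open one in every line, by 0.10 (without WT replicate 3) to 0.30 (slide row 1 alone).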

How the data were processed

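RNA from 6 pituitaries was Cy3-labelled and hybridised to one-colour Agilent arrays, per the labels. Per the file headers, spots were quantified in Agilent Feature Extraction 11.0.1.1. In the deposited intensity values (gProcessedSignal) local background and spatial trend had been removed, with no scaling across arrays, and the deposited median spot intensity served for normexp. The authors' deposited table holds log2 values whose columns have medians from 8.25 to 8.26, made with limma per the submitters' processing notes; its normalization is not given in the sources used.

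Control spots and outlier spots were left out, log2 intensities of a probe's spots were averaged and each array's 75th percentile over non-control spots was subtracted. The fit kept the 36739 probes that passed background on 3 or more arrays, and the brightest probe stood for a gene. KO and WT were compared with limma 3.58.1 in R 4.3.3 (two-sided, Benjamini-Hochberg over 26887 genes and features). Symbols came from RefSeq (GRCm38.p6). The limma fit was tested on simulated log2 values with noise independent between genes and arrays. The scaling, the background filter and the choice of probe were not tested in this way.

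Values for every array were written for the 8 members with the smallest p and for members whose probes disagreed, and up to 3 genes per list were named by p. Arrays of the members nearest to 0, of Ndufv1, Ndufv2, Ndufc2, Ndufab1 and Ndufa4 were given after their values were seen. The members, lists and alternatives were chosen with earlier results of these data known, and the count of separated members under the alternatives was added after seeing the data. For 1 gene of the related lists the values are not reported here.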

Additional observations from a re-analysis of the deposited data

How the results depend on the processing

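Under all 20 alternatives 0 of the 36 complex I genes were called by limma. Over all genes tested the count of calls was 25 with normexp, 19 with median centring, 27 in the authors' deposited value table, 11 with probes well above background on all arrays, 27 with a variance trend and robust fit, 4 with RefSeq genes alone, and 0 to 1 when single arrays were left out (1 without WT replicate 1). The members' median was -0.12 with quantile normalization, -0.091 with median centring and -0.13 in the authors' table, and ran from -0.32 to -0.18 with 1 array left out. Members with all KO below all WT arrays numbered 13 with normexp, 15 with quantile normalization, 0 with median centring and 12 in the authors' table. Members at an unadjusted p under 0.05 ranged from 0 to 17, the latter with the variance trend and robust fit. In that fit 9.33% of all tested were lower in KO at that level.

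Of 720 single-gene values 33 changed sign. The 7 under median centring follow from its uniform shift of 0.18 in every fold change, and for the others the cause was not tested. With normexp these were Ndufa6 (0.068) and Ndufs7 (0.11). With quantile normalization they were Ndufa3 (0.046), Ndufa6 (0.13), Ndufa12 (0.089), Ndufb10 (0.011), Ndufc2 (0.045), Ndufs7 (0.13) and Ndufv3 (0.027). With median centring they were Ndufa3 (0.035), Ndufa6 (0.16), Ndufa8 (0.0098), Ndufa12 (0.079), Ndufc2 (0.031), Ndufs1 (0.12) and Ndufs7 (0.17). In the authors' table they were Ndufa3 (0.019), Ndufa6 (0.12), Ndufa12 (0.070), Ndufc2 (0.00827) and Ndufs7 (0.16). Ndufs7 also turned with array weights (0.010), and Ndufs1 (0.073) and Ndufs7 (0.043) within slide row 1. With 1 array left out, Ndufa5 ran from -0.32 to 0.031, Ndufa6 from -0.12 to 0.11, Ndufa10 from -0.029 to 0.15, Ndufs1 from -0.24 to 0.069 and Ndufs7 from -0.12 to 0.10.

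The reported fit used no pairing by replicate number. The deviations of same-numbered arrays correlated at 0.15, -0.18 and -0.08, and those of unlike-numbered arrays at -0.14 to 0.21. With 3 arrays per group these values cannot decide whether the samples were paired. With the replicate block, 1 member in place of 8 had an unadjusted p under 0.05 (7.49% of all tested lower at that level), and 0 were called. In this balanced design a block leaves each fold change (median -0.27) as it is. All member probes were well above background on all 6 arrays, and how far signal limits their values was not tested.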
